A study of Callithrix jacchus and Rattus norvegicus and Loxodonta africana with 31 samples.

Results

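Complement and blood coagulation are cascades of plasma proteins in which each activated protease cleaves the next. Complement is triggered through C1q, mannose-binding lectin or the alternative route, converges on C3 and C5 and ends in a membrane pore built from C6 to C9. Coagulation runs from tissue factor or the contact proteases to thrombin, which turns fibrinogen into fibrin. Most of these proteins are known to be secreted by hepatocytes, while their cellular receptors, membrane inhibitors and a few soluble components are made by vessel wall, stromal, blood or immune cells.

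The genes described here are 45 complement, coagulation and fibrinolysis genes, matched by gene name, ignoring case, in tables of expression levels of 3 mammals. Of the 45 names, 44 were found in at least 1 table: 17 in all 3, 22 in 2 and 5 in 1, while Cfb, complement factor B, was found in none and Kng1 was not named in the rat table. The marmoset table named 23 of them among its 19681 genes and the wallaby table named 34 among 13892. The rat table named 43 in 44 rows among 20486, since 2 gene IDs carry the name Mbl2. A further 17 marmoset IDs were paired with a member's name only by an Ensembl name table and are described apart.

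The study, on the evolution of Y chromosome genes, sequenced polyadenylated RNA of 31 samples of 4 species, of which 3 elephant samples were not used here. The animals of the common marmoset (Callithrix jacchus), the rat (Rattus norvegicus) and the tammar wallaby (Notamacropus eugenii) carried no treatment or mutation in the labels, which give neither ages nor strains. Liver, kidney and heart were each 1 male and 1 female library of the marmoset and the rat, and the ovary was 1 library. Brain had 1 male and 1 female column, which cover frontal cortex or cerebellum samples without saying which. Testis was 1 library of the rat, and in the marmoset 1 column for 3 samples from 2 individuals, given here as the authors' value. The wallaby had 1 male liver and 1 male testis library. Each somatic tissue was thus measured in 1 animal per sex, and the labels name individual 1 of each sex throughout, so the spread between libraries is also the difference between a male and a female.

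Levels are given in FPKM, the number of sequenced fragments per transcript length relative to all mapped fragments, normalized by the authors across tissues, and are comparable between genes because they are divided by transcript length. The tables hold no counts, so the depth is unknown, and each species has a table of its own scale, which limits comparison of levels between species. Summed FPKM per library ran between 210712 and 3551200, and is not a measure of depth. The summed markers of liver, heart, kidney and brain were highest where the labels place them, although in the marmoset SERPINA1 was listed at 0 in male liver, as was 1 of 4 cardiomyocyte markers in male heart. The hepatocyte marker genes (APOA1, APOA2, TTR, AHSG, SERPINA1, APOH, TF and CYP2E1, of which 6, 8 and 5 were found in marmoset, rat and wallaby) summed to 52205 and 47931 FPKM in marmoset liver, 104347 and 78190.2 FPKM in rat liver and 62311 FPKM in wallaby liver, male first, against at most 619 FPKM in any other library. Cardiomyocyte markers summed to 8897 FPKM or more in each heart library and kidney markers to 1589 FPKM or more in each kidney library, against at most 21.7 and 24.7 FPKM elsewhere, and brain markers to 348 FPKM or more in each brain column, against at most 12.1 FPKM. In bulk tissue, fewer cells of a type and less RNA per cell cannot be told apart.

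Each somatic tissue was compared with the mean of the other 3 by limma on log2(FPKM + 1), with the animal as a block. A gene was called at an adjusted p under 0.05 and an absolute log2 difference of at least 1. Every member passed the filter of at least 1 FPKM in at least 2 libraries. However, 4 in the marmoset (C8A, C8B, F13B, F9) and 14 rows in the rat reached 1 FPKM in the liver libraries alone. Marmoset C5, C9, F12 and PROC and rat F2, Plg, Klkb1, F13b and F5 reached it in only 1 somatic library outside liver. All of these needed a liver library to pass, so a liver difference was built into their selection.

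Liver was where most of these genes were highest, in both species. In the marmoset 20 of 23 members were called higher in liver, beside 21.3% of all 15100 genes tested, and in the rat 35 of 44 rows, beside 19.6% of 14560. The median liver difference was 6.74 on the log2 scale over the marmoset members, against 0.06 over all genes, and 6.42 over the rat members, against -0.06. Among the members called higher, the differences ran between 2.41 and 9.86 in the marmoset and between 1.91 and 10.19 in the rat. Both liver libraries exceeded every other somatic library for 19 of the 20 marmoset members, CFD being the exception, and for all 35 rat rows. Liver held a median of 98.8% of the summed tissue means of these 20 marmoset members and 99.7% of those of the 35 rat rows. The rat called 4 members lower in liver (C7, F3, Thbd and Cd55), beside 19.1% of all genes.

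**Figure D1:**
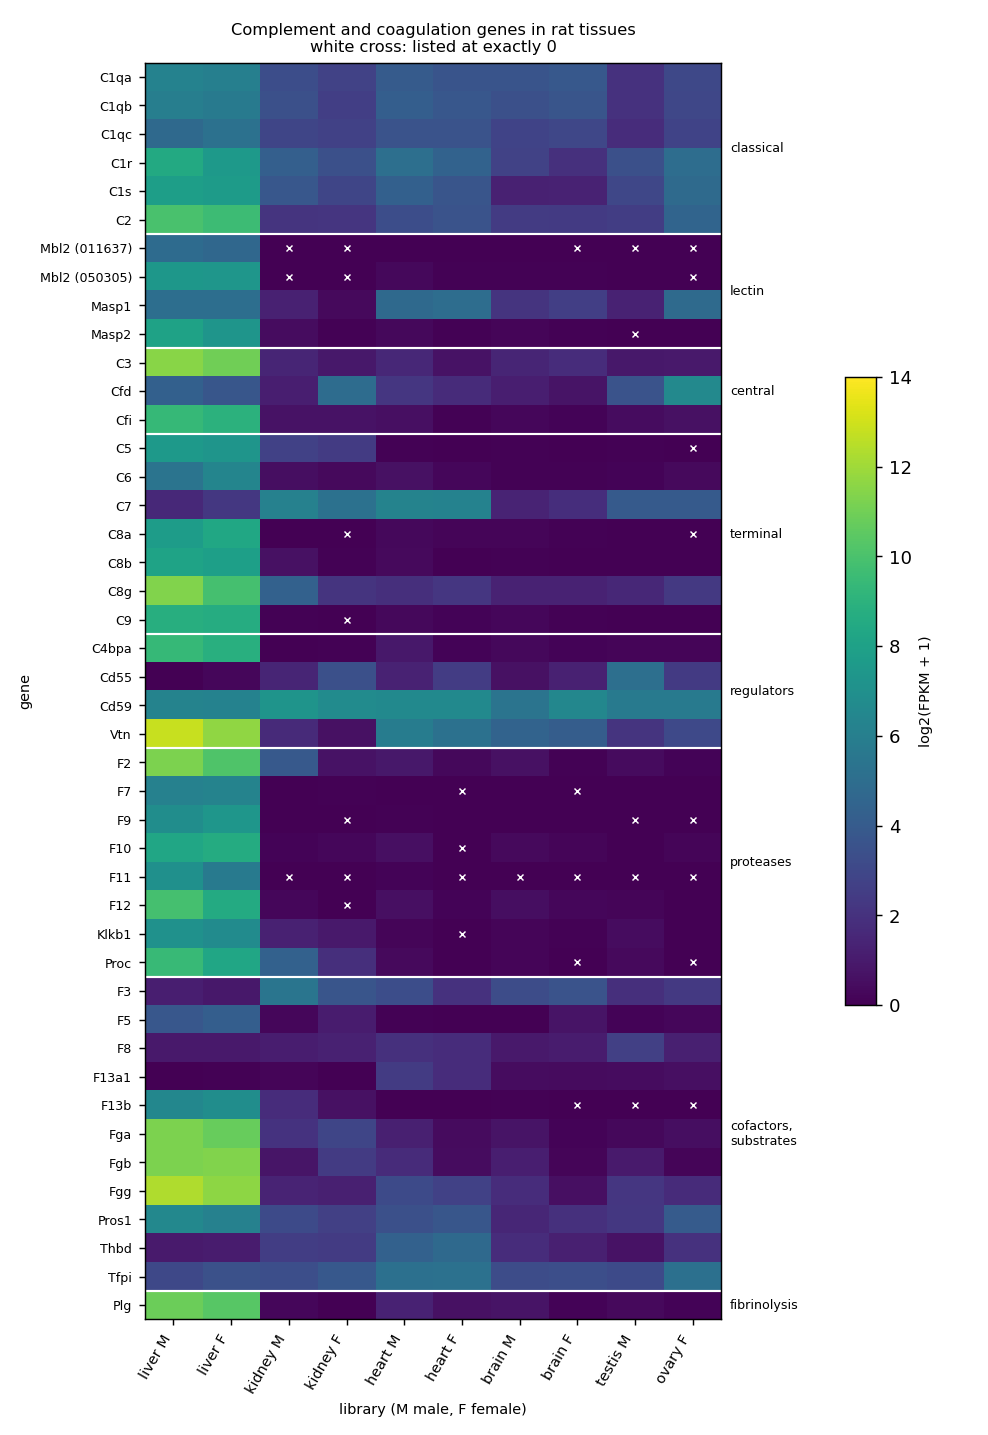
Levels of the 44 rat rows in every library as log2(FPKM + 1), rows grouped by role, with liver at the left and a white cross where the table lists exactly 0. The liver columns are the brightest for 35 rows, while C7, F3, Thbd and Cd55 are darker in liver than in kidney or heart.

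The recognition unit of the classical complement route is C1q, a product of macrophages and microglia, with the proteases C1r and C1s bound to it. Marmoset C1R stood at 2978 FPKM in male and 1138 FPKM in female liver, against a lowest, median and highest of 1.35, 21.2 and 92.5 FPKM over the 6 other somatic libraries. Its highest level outside liver was in kidney, at 90.4 and 92.5 FPKM. C1S, its partner protease, stood at 990.5 and 393 FPKM in marmoset liver and at most 15.8 FPKM in the other somatic libraries. The liver differences were 6.73 ± 0.34 for C1R and 6.65 ± 0.31 for C1S (log2, limma estimate ± SE, adjusted p = 2.5e-05 and 1.8e-05). In the rat both were called higher in liver with smaller differences, 4.42 ± 0.18 for C1r and 4.88 ± 0.23 for C1s. Rat C1r had 369 and 190.5 FPKM in liver against 33.0 and 19.8 FPKM in heart. C2, the protease that C1s cleaves, was at 1006 and 783 FPKM in rat liver and at most 11.0 FPKM elsewhere in the somatic libraries.

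The 3 chains of rat C1q were called higher in liver but were present in every somatic tissue. C1qa had 72.3 and 65.4 FPKM in male and female liver, against 8.95 and 5.75 FPKM in kidney, 15.0 and 11.3 FPKM in heart and 11.3 and 13.3 FPKM in brain. C1qb had 62.1 and 51.4 FPKM in liver and between 5.10 and 17.3 FPKM in the other somatic libraries, and C1qc 26.2 and 36.3 FPKM in liver and between 5.46 and 10.8 FPKM. No liver library overlapped another tissue. The liver differences were 2.60 ± 0.21, 2.33 ± 0.24 and 1.91 ± 0.20 (limma adjusted p = 1.31e-04, 3.44e-04 and 3.48e-04). The ratio of C1qa to C1qb stayed between 0.863 and 1.27 over the 8 somatic libraries. Macrophage and microglia markers, all 8 of which were found in the rat, summed to 118 and 109 FPKM in liver, 85.7 and 43.2 FPKM in kidney, 91.1 and 40.7 FPKM in heart and 37.9 and 48.4 FPKM in brain, and the microglial receptor gene Cx3cr1 was at 0 and 0.0857 FPKM in liver. Cd68, Aif1 and Cd163 were higher in both livers than in every other somatic library. Among the somatic libraries, Tyrobp, Laptm5 and Ptprc were highest in male heart, and Csf1r and Cx3cr1 in female brain. In testis the markers summed to 237 FPKM, of which Aif1 gave 228 FPKM, while C1qa was at 3.05 FPKM there. The part of these markers in the C1q levels was not tested.

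The lectin route starts from Mbl2, mannose-binding lectin, and its proteases Masp1 and Masp2. Of the 2 rat rows named Mbl2, 1 stood at 169.5 and 161 FPKM and the other at 28.3 and 24.6 FPKM in male and female liver, and neither exceeded 0.235 FPKM in another somatic library. Whether they are near-identical copies, between which reads could have been split, was not tested. Rat Masp2 had 266 and 159.6 FPKM in liver and at most 0.398 FPKM in the other somatic libraries. Masp1 differed. It stood at 32.8 and 31.7 FPKM in rat liver and 26.4 and 30.6 FPKM in rat heart, against 1.47 and 0.267 FPKM in kidney and 3.24 and 4.99 FPKM in brain. Rat Masp1 was called higher both in liver (2.38 ± 0.29, limma adjusted p = 7.03e-04) and in heart (2.14 ± 0.29, adjusted p = 0.00128) than in the mean of the other tissues, and rat ovary had 27.8 FPKM. In the marmoset, MASP1 had 37.6 and 64.8 FPKM in liver and 10.8 and 7.75 FPKM in heart and was called higher in liver only (3.47 ± 0.26, adjusted p = 1.13e-04).

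At the centre of complement, C3, the substrate on which all routes converge, had 2903 and 2025 FPKM in rat liver, against a lowest, median and highest of 0.591, 1.76 and 2.39 FPKM over the other somatic libraries. Its liver difference, 9.94 ± 0.26, was among the 5 highest of the rat members, with Fgb, Fgg, Plg and Fga. Cfi, factor I, which cleaves C3b, stood at 659 and 518 FPKM in rat liver and at most 0.619 FPKM in the others.

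CFD, factor D, is the protease of the alternative route, known in the mouse as adipsin of fat cells. Its liver libraries did not both exceed the other somatic libraries in either species. Marmoset CFD had 169 and 12.1 FPKM in male and female liver, 145 and 6.15 FPKM in kidney, 73.2 and 1.28 FPKM in heart, and 0.884 and 0.464 FPKM in brain. The male library was above the female one in each tissue, and the tissues overlapped. Liver was the highest somatic tissue within each animal. The marmoset call in liver (2.41 ± 0.83, limma adjusted p = 0.0427) was lost without the replicate block (adjusted p = 0.323) and without the male liver library (adjusted p = 0.224). It was also lost without the female liver (adjusted p = 0.140), the male kidney (0.0663), the female kidney (0.104) or the female heart (0.0881). The adipocyte markers PLIN1 and CIDEC, the 2 of 4 that were found, summed to 35.0 and 51.5 FPKM in male and female marmoset liver, 2.72 and 1.73 FPKM in kidney, 1.62 and 0.137 FPKM in heart and 0.291 and 0.267 FPKM in brain. The male library was the higher in each tissue but liver. CIDEC gave nearly all of the liver sums, and PLIN1 was at 0.176 and 0.289 FPKM there. Their part in the CFD values was not tested.

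Rat Cfd was highest in ovary (96.0 FPKM), followed by female kidney (30.2 FPKM), male and female liver (18.4 and 12.4 FPKM) and testis (10.8 FPKM). Male kidney had 1.22 FPKM, heart 3.58 and 2.26 FPKM and brain 1.28 and 0.673 FPKM. Its liver difference of 2.02 ± 0.85 was not called (limma adjusted p = 0.0784). It was called without the female kidney (2.74, adjusted p = 4.94e-04) and without the male kidney (1.30, adjusted p = 0.00349). The adipocyte markers Adipoq, Fabp4, Plin1 and Cidec summed to 14.3 FPKM in male and 92.3 FPKM in female rat kidney, 31.7 and 38.0 FPKM in liver, 291 and 490.3 FPKM in heart, 0.889 and 1.82 FPKM in brain, 175 FPKM in ovary and 50.1 FPKM in testis. The heart sums, almost all Fabp4, were the highest, where Cfd was low. Adipoq, adiponectin, was at 3.09 FPKM in male and 22.6 FPKM in female kidney, 25.3 FPKM in ovary and listed at 0, as was Plin1, in both livers. Their part in the Cfd values was not tested.

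The terminal pathway genes divided sharply. Rat C5, C6, C8a, C8b, C8g and C9 were all called higher in liver, by 5.56 to 8.57 on the log2 scale. In the marmoset the same held for C5, C8A, C8B and C9, by 7.23 to 9.40. Marmoset C8B, a chain of the pore component C8, had 1152 and 584 FPKM in male and female liver and at most 0.747 FPKM in the 6 other somatic libraries. C8A had 763 and 451 FPKM in marmoset liver and at most 0.734 FPKM in the others. C9, the protein that polymerises into the pore, had 797 and 532 FPKM in marmoset liver, with a median of 0.301 and a highest value of 1.22 FPKM elsewhere. In the rat the corresponding liver values were 273 and 238 FPKM for C8b, 216 and 328 FPKM for C8a and 433 and 407 FPKM for C9. The a and b chains, whose products stand 1 to 1 in the protein, had ratios of 0.662 and 0.772 in marmoset liver and 0.789 and 1.38 in rat liver. Rat C8g, the third chain, stood far above C8b, 9.63 times in male and 3.88 times in female liver.

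C7, which docks the growing complex to the membrane, was the exception in the rat. It had 69.6 and 36.4 FPKM in kidney and 75.7 and 73.0 FPKM in heart, against 2.10 and 3.84 FPKM in liver and 1.64 and 2.59 FPKM in brain, and 14.7 FPKM each in testis and ovary. Every heart and kidney library was above every liver and brain library. C7 was called higher in rat heart (3.15 ± 0.32, limma adjusted p = 3.64e-04) and kidney (2.41 ± 0.32, adjusted p = 0.00147) and lower in liver (-2.56 ± 0.32, adjusted p = 7.02e-04). Fibroblast markers summed to 1368 and 676 FPKM in rat heart and 221 and 104 FPKM in rat kidney, against 101 and 122 FPKM in liver and 35.2 and 41.9 FPKM in brain. They summed to 143 FPKM in testis and 862 FPKM in ovary, and the ovary sum was above that of female heart. Dcn gave 149 and 67.2 FPKM of the kidney sums, and in the female the kidney sum was under the liver sum. Dcn, Col1a1 and Pdgfra were higher in kidney than in liver within each animal. Lum and Col3a1 were lower there, with Col3a1 at 16.1 and 10.4 FPKM in kidney and 56.7 and 79.5 FPKM in liver. Col1a2 was higher in kidney in the male only. The part of these markers in the C7 levels was not tested.

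**Figure D2:**
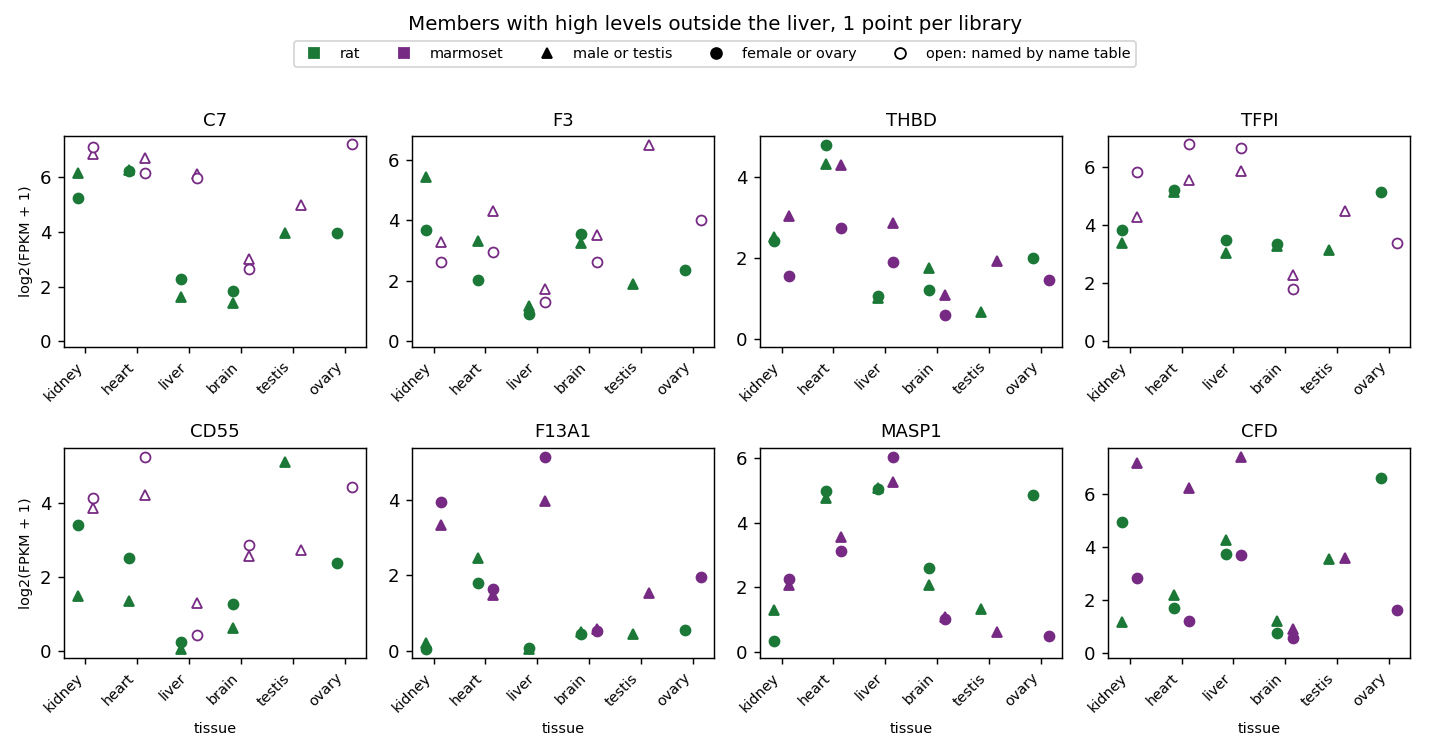
Levels, as log2(FPKM + 1), of the 8 members with high levels outside liver, 1 point per library by tissue; triangles are male libraries and testis, circles female libraries and ovary, and open symbols marmoset genes named by the name table. Rat C7 is high in kidney and heart and low in liver and brain, and THBD is highest in heart among the somatic tissues within each animal. The male and female points of CFD lie far apart in marmoset liver, kidney and heart and in rat kidney.

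Among the regulators, C4BPA and VTN were liver genes and the membrane inhibitors were not. C4BPA, the alpha chain of C4b-binding protein, had 1322 and 511 FPKM in marmoset liver and at most 5.94 FPKM in the other somatic libraries (8.29 ± 0.32, limma adjusted p = 8.3e-06). Rat C4bpa had 655 and 450.3 FPKM in liver and at most 0.870 FPKM elsewhere. Rat Vtn, vitronectin, a plasma adhesion protein that also blocks the complement pore, was the highest member of the rat liver by mean level, at 7356 and 3322 FPKM, with 57.5 and 36.2 FPKM in heart and 2.18 and 0.536 FPKM in kidney.

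Cd55, decay-accelerating factor, a membrane-anchored inhibitor of the C3 convertases, was lowest in rat liver, at 0.0257 and 0.188 FPKM in male and female, against 1.78 and 9.63 FPKM in kidney, 1.56 and 4.66 FPKM in heart and 0.548 and 1.41 FPKM in brain. The female library was the higher in every somatic tissue. Cd55 was called lower in rat liver (-1.63 ± 0.32, limma adjusted p = 0.00474) and higher in kidney (1.43 ± 0.32, adjusted p = 0.0134). The liver call was lost without the female liver (adjusted p = 0.0661) and the kidney call without the replicate block, the female kidney or the female brain. Cd59, the inhibitor of the pore, was present throughout, at 75.0 and 73.2 FPKM in rat liver and between 41.3 and 152 FPKM in the other somatic libraries, and its liver difference of -0.30 ± 0.32 was not called (adjusted p = 0.447).

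Each of the 8 coagulation protease genes was called higher in liver in the rat, as were the 7 named in the marmoset. F2, prothrombin, had the highest liver difference of the marmoset members, at 3013 and 1179 FPKM in male and female liver against a lowest, median and highest of 0.0531, 0.808 and 6.06 FPKM elsewhere (9.86 ± 0.26, limma adjusted p = 3.45e-06). Rat F2 had 2456 and 1146 FPKM in liver, 13.9 FPKM in male and 0.615 FPKM in female kidney, and at most 0.879 FPKM in heart and brain. F12, the contact factor, had 753 and 220.4 FPKM in marmoset liver and at most 2.34 FPKM in the others. In rat liver it had 940.4 and 370.1 FPKM. PROC, protein C, an anticoagulant protease, had 993 and 302 FPKM in marmoset liver and 679 and 309 FPKM in rat liver, with 19.2 FPKM in male and 2.72 FPKM in female rat kidney. F9, factor IX, on the X chromosome in both tables, differed little between the animals: 351 and 377 FPKM in male and female marmoset liver, and 117 and 161 FPKM in rat liver.

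F7, F10, F11 and Klkb1 of the rat stood between 52.8 and 393 FPKM in liver. Outside liver F7, F10 and F11 stood at 0.481 FPKM or less in every somatic library. Marmoset F7, factor VII, was less confined: 161 and 66.2 FPKM in liver but 5.23 and 5.09 FPKM in brain. Marmoset F11, a contact-route protease, had 5.62 and 5.33 FPKM in kidney beside 68.6 and 81.2 FPKM in liver, while rat F11 was listed at 0 in kidney.

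Fibrinogen, the clottable plasma protein, is built from 3 chains encoded by neighbouring genes. All 3 were called higher in rat liver. Fga had 2386 and 1718 FPKM in male and female rat liver and at most 6.72 FPKM in the other somatic libraries. Fgb had 2444 and 2633 FPKM, and at most 4.34 FPKM elsewhere. Fgg had 5184 and 3136 FPKM, and at most 7.95 FPKM elsewhere. Their differences of 9.74 ± 0.34, 10.19 ± 0.53 and 10.16 ± 0.25 were, with Plg and C3, the highest of the rat members. In wallaby liver FGA and FGG had 14246 and 21265 FPKM.

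In the marmoset the fibrinogen genes were not called in liver, where the male and female libraries were far apart. FGA was listed at 0 in male liver and had 5338 FPKM in female liver, and FGB was listed at 0 and had 7193 FPKM. In the other male somatic libraries FGA had 3.18 FPKM in kidney, 9.78 FPKM in heart and 3.37 FPKM in brain, and FGB 3.70, 10.7 and 3.99 FPKM, while the female libraries of those tissues had at most 0.509 FPKM of either. The liver differences were 4.83 ± 2.91 for FGA and 4.96 ± 3.02 for FGB (limma adjusted p = 0.193 and 0.197). Without the male liver library they were 12.20 and 12.61 and called. Without the female liver they turned to -2.54 and -2.70 and were called lower. FGG, identified by the name table, had the same pattern, listed at 0 in male and at 8495 FPKM in female liver. Among 104 genes with at least 1000 FPKM in female marmoset liver, 6 were listed at 0 in the male liver: these 3, the protease inhibitor gene SERPINA1 and 2 others. No gene with at least 100 FPKM in the male liver was listed at 0 in the female liver. A 0 of this kind can be a failed estimate in the authors' tables, and the male liver values of FGA and FGB are therefore given only as listed.

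In FPKM, the male marmoset libraries outside liver also held more of the hepatocyte markers. The sum over all genes was higher in the male too, at 611025 and 336485 FPKM in kidney, 837796 and 427621 FPKM in heart and 250996 and 210712 FPKM in brain. The 6 hepatocyte markers summed to 122 FPKM in male and 21.4 FPKM in female heart, 527 and 361 FPKM in kidney and 118 and 87.7 FPKM in brain. SERPINA1 gave 367 and 266 FPKM of the kidney sums and TF 80.7 and 80.2 FPKM of the brain sums. In the authors' testis column the markers summed to 411 FPKM, where FGA and FGB stood at 10.1 and 14.4 FPKM. APOA1 and TF gave 223 and 167 FPKM of the testis sum, while APOH, AHSG and CYP2E1 were at 1.38, 1.75 and 1.25 FPKM. The part of the markers' source in the fibrinogen levels outside liver was not tested.

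**Figure D3:**
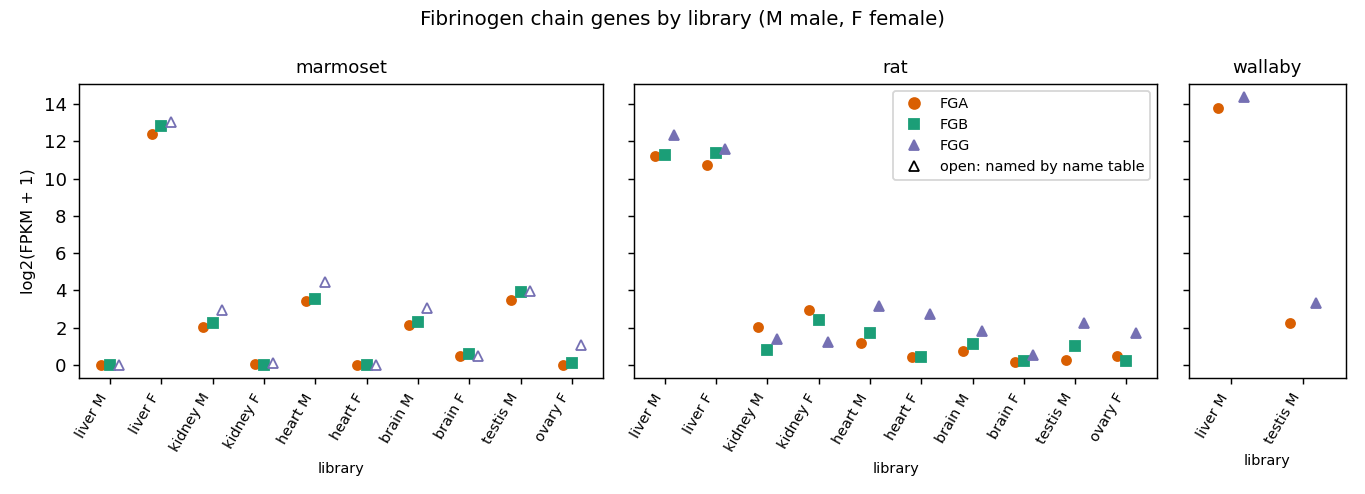
Levels of the fibrinogen chain genes as log2(FPKM + 1) in every library of the marmoset, the rat and the wallaby, with liver at the left. The 3 chains lie at 0 in male and above 12 in female marmoset liver and above 10 in both rat livers, as do FGA and FGG, the 2 chains found, in the wallaby liver.

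Of the remaining plasma cofactors and substrates, F5, the cofactor of the thrombin-generating complex, had 94.1 and 106 FPKM in marmoset liver and at most 4.08 FPKM elsewhere. Rat F5 had 12.7 and 17.2 FPKM in liver and at most 1.10 FPKM elsewhere. Pros1, protein S, a cofactor of protein C, had 90.4 and 70.9 FPKM in rat liver and 9.59 and 12.6 FPKM in heart (liver difference 3.61 ± 0.25, limma adjusted p = 6.5e-05). KNG1, kininogen, the carrier of bradykinin, was second to liver in marmoset kidney. It had 598 and 742 FPKM in liver and 107 and 56.7 FPKM in kidney, against at most 0.741 FPKM in heart and brain. It was called higher both in liver (7.06 ± 0.26, limma adjusted p = 7.3e-06) and in kidney (2.95 ± 0.26, adjusted p = 3.99e-04) than in the mean of the other tissues. Plg, plasminogen, the precursor of the fibrin-cleaving protease, had 1881 and 1295 FPKM in rat liver and at most 1.55 FPKM elsewhere (10.09 ± 0.18, adjusted p = 6.53e-07).

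The subunits of factor XIII, which cross-links fibrin, parted. The carrier subunit F13B stood at 106 and 182 FPKM in marmoset liver, with a median of 0.0189 FPKM over the other somatic libraries. It had 86.7 and 117 FPKM in rat liver. The catalytic subunit F13A1 had 14.6 and 33.8 FPKM in marmoset liver, 9.11 and 14.2 FPKM in kidney and 1.75 and 2.12 FPKM in heart, and was called higher in liver (2.63 ± 0.27, limma adjusted p = 3.82e-04) and in kidney (1.42 ± 0.27, adjusted p = 0.00724). The kidney call was lost without either kidney library and in the fit without the brain columns. In the rat the order differed. Rat F13a1 had 4.45 and 2.46 FPKM in heart, against 0.0381 and 0.0409 FPKM in liver, 0.154 and 0.0342 FPKM in kidney and 0.402 and 0.346 FPKM in brain. It was called higher in rat heart (1.90 ± 0.17, adjusted p = 2.05e-04), and its liver difference of -0.85 ± 0.17 did not reach the size threshold. It was called lower in liver with log2(FPKM + 0.1) (-2.26, adjusted p = 0.00106) and without the brain columns (-1.07, adjusted p = 0.00585). The platelet markers, 4 of 4 found in the rat, summed to 84.4 and 24.7 FPKM in heart, against 21.6 and 9.29 FPKM in liver, 15.2 and 6.32 FPKM in kidney and 3.84 and 2.33 FPKM in brain. Pf4 made up most of the heart sums, while Itga2b was lower in heart (0.828 and 0.491 FPKM) than in liver (9.87 and 5.12 FPKM). Their part in the F13a1 levels was not tested.

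THBD, thrombomodulin, the endothelial receptor that redirects thrombin to protein C, had 19.2 and 26.8 FPKM in rat heart, against 4.72 and 4.35 FPKM in kidney, 1.02 and 1.08 FPKM in liver and 2.37 and 1.31 FPKM in brain. In the marmoset it had 18.7 and 5.64 FPKM in heart, against 7.17 and 1.94 FPKM in kidney, 6.30 and 2.75 FPKM in liver and 1.10 and 0.496 FPKM in brain. Within each animal heart was the highest somatic tissue, while the female marmoset heart lay under the male kidney and liver. THBD was called higher in heart in both species (2.90 ± 0.22, limma adjusted p = 1.32e-04, in the rat; 1.68 ± 0.26, adjusted p = 0.00242, in the marmoset) and lower in rat liver (-1.80 ± 0.22, adjusted p = 7.12e-04). The marmoset heart call was lost without the replicate block.

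Tfpi, the inhibitor of the tissue factor route, had 34.5 and 36.0 FPKM in rat heart, against 9.38 and 13.3 FPKM in kidney, 7.11 and 10.1 FPKM in liver and 8.65 and 9.24 FPKM in brain (heart difference 1.79 ± 0.19, limma adjusted p = 4.06e-04), and 34.5 FPKM in ovary. F3, tissue factor, the membrane receptor that starts coagulation, had 42.7 and 11.9 FPKM in rat kidney, 8.94 and 3.04 FPKM in heart and 8.57 and 10.8 FPKM in brain, against 1.23 and 0.857 FPKM in liver. It was called higher in rat kidney (2.20 ± 0.40, adjusted p = 0.00574) and lower in liver (-2.52 ± 0.40, adjusted p = 0.00197). The kidney call was lost without the male kidney library. F8, factor VIII, a product of endothelial cells, was low in the rat, at 2.83 and 2.39 FPKM in heart with a median of 1.27 FPKM over the 6 somatic libraries outside liver, and no tissue difference passed both thresholds. Endothelial markers, 7 of 7 found in the rat and 6 of 7 in the marmoset, summed to 216 and 234 FPKM in rat heart, against 74.3 and 62.9 FPKM in kidney, 45.7 and 50.1 FPKM in liver and 19.6 and 21.0 FPKM in brain. In the marmoset they summed to 168 and 143 FPKM in heart, against 90.2 and 68.9 FPKM in kidney, 59.2 and 65.4 FPKM in liver and 24.6 and 18.6 FPKM in brain. Rat brain thus had the lowest sums of the somatic tissues, while F3 was higher there than in liver. In rat testis the endothelial markers had their lowest sum of the rat libraries, 5.25 FPKM. F8 was at its highest there, at 5.38 FPKM, while Thbd, Tfpi and F3 were at 0.596, 7.89 and 2.70 FPKM. The part of these markers in these levels was not tested.

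Over all members, the calls outside liver were few. In heart 5 of 44 rat rows were called higher (C7, Thbd, Masp1, F13a1 and Tfpi), beside 16.7% of all genes, and in the marmoset 1 of 23 (THBD), beside 13.1%. In kidney they were 3 rat rows (C7, F3 and Cd55), beside 11.9%, and 2 in the marmoset (KNG1 and F13A1), beside 13.7%. In brain no member was called higher by limma in either species, beside 17% of all genes in the marmoset and 17.6% in the rat, and 0 were higher at an unadjusted p under 0.05. Brain was called lower for 20 of 23 marmoset members, beside 28.8% of all genes, and for 34 of 44 rat rows, beside 27.1%. These contrasts share libraries, so a high liver level lowers the value of every other tissue.

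**Figure D4:**
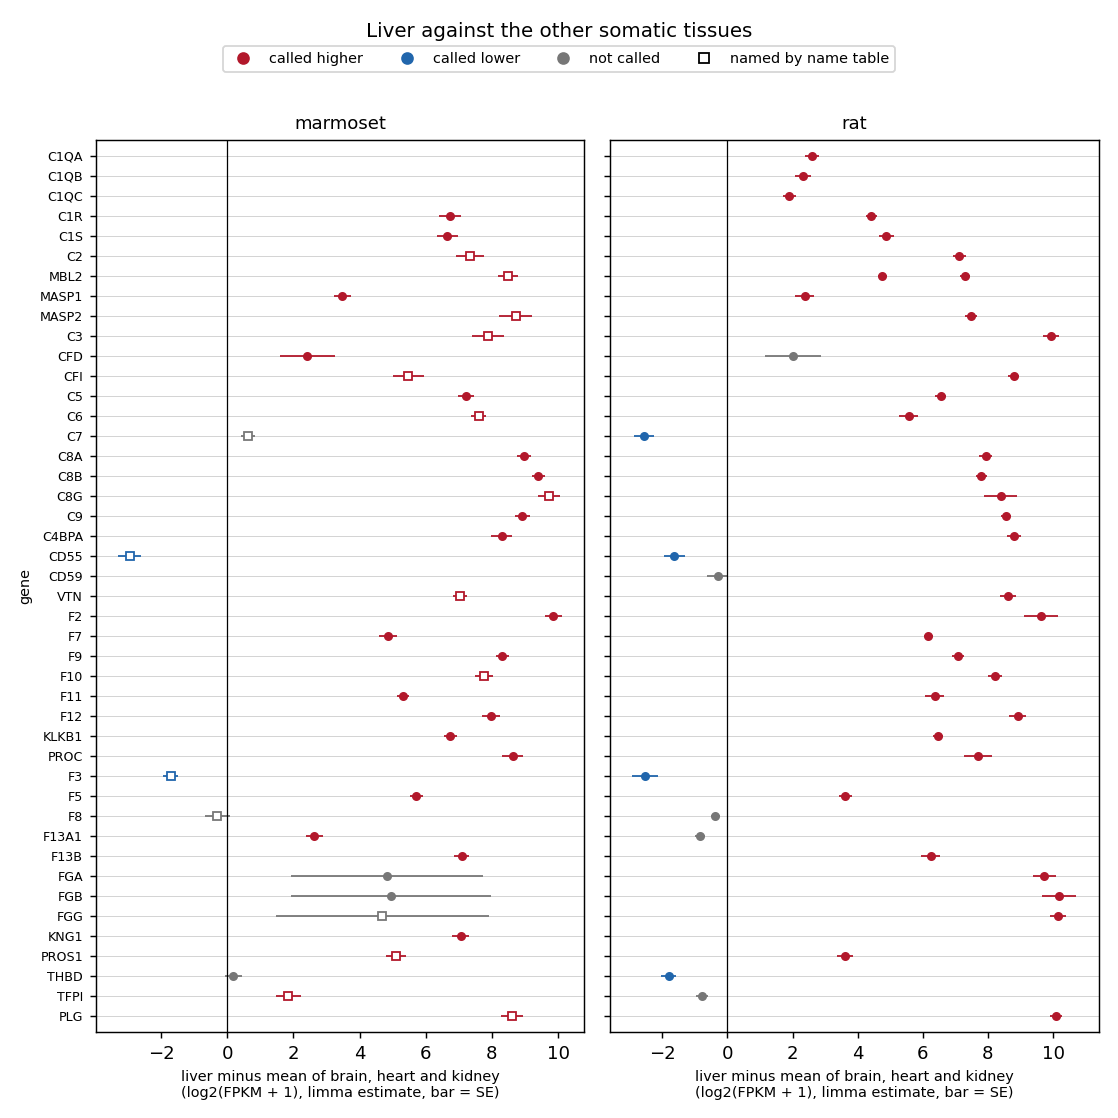
Liver minus the mean of brain, heart and kidney on the log2(FPKM + 1) scale (limma estimate, bar = SE) for each member, marmoset at the left and rat at the right; red was called higher, blue lower, grey neither, and open squares are marmoset genes named by the name table. Most points lie at 4 or more, C7, F3, CD55 and THBD lie left of 0 and are called lower in the rat, and the marmoset fibrinogen genes have the longest bars.

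Set side by side, 22 members were named in both the marmoset and the rat table, and 17 of them were called higher in the liver of both, beside 10.3% of the 5342 gene names tested in both. The other 5 were FGA, FGB, CFD, F13A1 and THBD, whose values are given above. The difference between species was not tested, since the tables were normalized apart.

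The 17 marmoset IDs named by the name table gave 12 calls higher in liver, beside 21.3% of all genes, and 2 lower (CD55 and F3), beside 16.5%, with C7, F8 and FGG not called. Among the 12, MBL2 and C6 reached at most 0.438 and 0.586 FPKM in the other somatic libraries. They passed the filter through the liver libraries alone, so their liver difference was built into the selection. C3 stood at 15106 and 3917 FPKM in marmoset liver and at most 123 FPKM in the other somatic libraries, VTN at 7718 and 4128 FPKM, and PLG at 1062 and 2205 FPKM with 44.2 and 37.4 FPKM in kidney. MASP2 differed widely between the animals, at 3243 FPKM in male and 388 FPKM in female liver. C7 was spread more evenly than in the rat, at 114 and 135 FPKM in kidney and 103 and 70.2 FPKM in heart, against 68.7 and 60.9 FPKM in liver and 7.03 and 5.27 FPKM in brain. It was called higher in kidney (1.87 ± 0.21, limma adjusted p = 9.23e-04) and heart (1.15 ± 0.21, adjusted p = 0.00501), not lower in liver. CD55 was lowest in liver in the marmoset too, at 1.45 and 0.333 FPKM, against 4.92 to 36.6 FPKM in the other somatic libraries (-2.96 ± 0.35, adjusted p = 6.93e-04). F8, with 1.68 FPKM in male and 10.4 FPKM in female heart, was called higher in heart (1.65 ± 0.38, adjusted p = 0.0122). TFPI was called higher in heart (1.72 ± 0.39) and in liver (1.85 ± 0.39). TFPI had 45.4 and 110.4 FPKM in male and female heart, 57.4 and 100.05 FPKM in liver, 18.1 and 55.7 FPKM in kidney and 3.85 and 2.47 FPKM in brain, so that liver was the higher in the male and heart in the female.

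**Figure D5:**
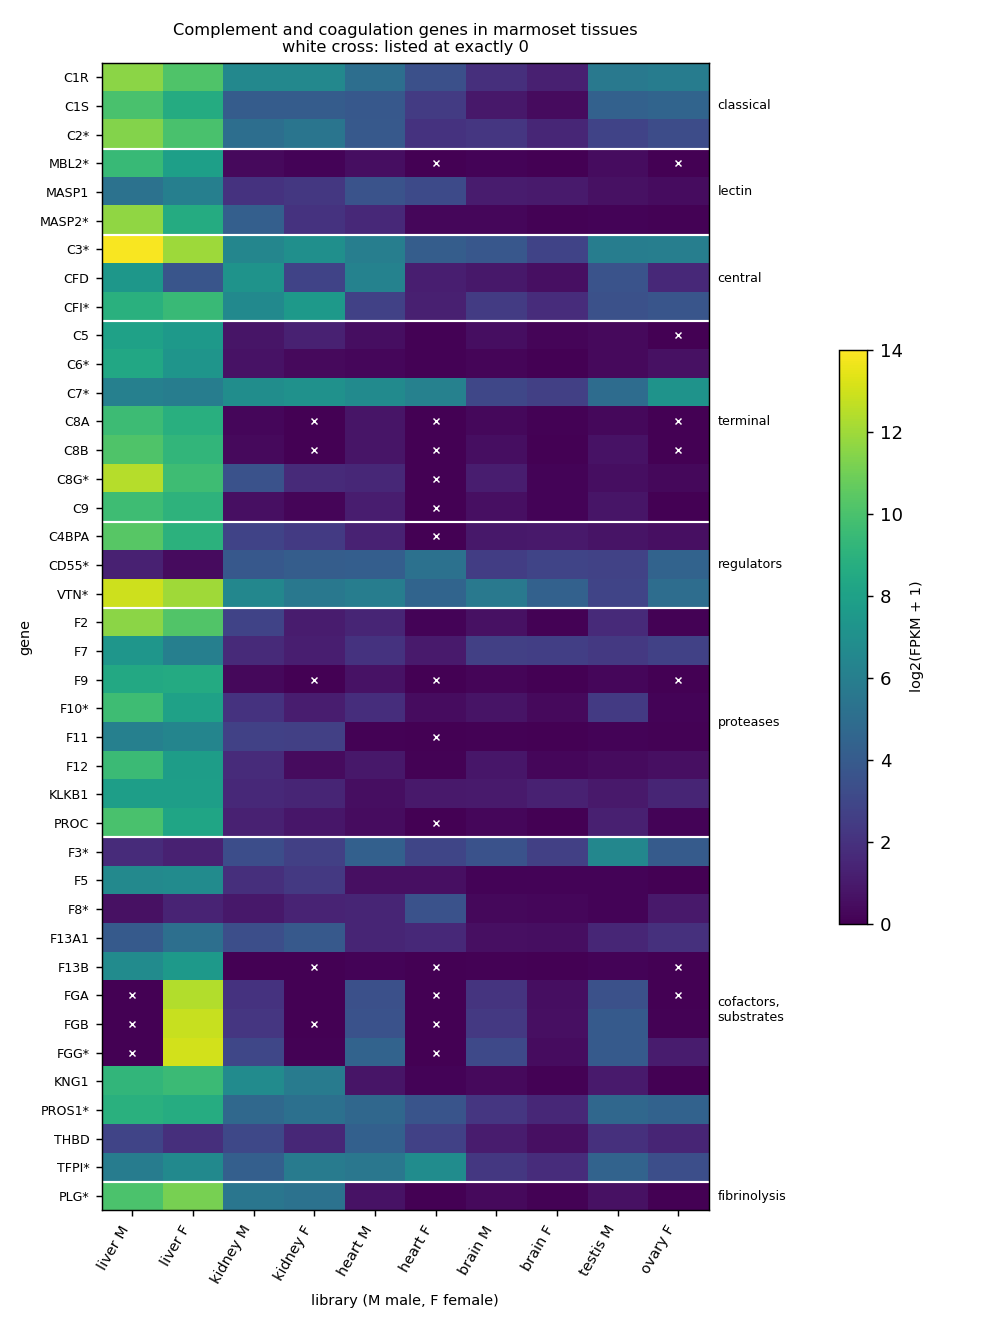
Levels of the 23 marmoset members and, marked by an asterisk, the 17 genes named by the name table, as log2(FPKM + 1) in every library with liver at the left; a white cross marks a value listed at exactly 0. The fibrinogen rows are crossed out in male liver and bright in female liver, and CFD, C7, CD55, F3 and THBD show no single bright liver block.

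Gonads had 1 column each, and no test was possible. No member lay at least 2 log2 units above every somatic library in marmoset testis, marmoset ovary, rat testis or rat ovary, where 3.73%, 0.602%, 12% and 0.635% of all genes did. Nearest were rat Cd55 in testis, at 33.6 FPKM against a highest somatic value of 9.63 FPKM (1.70 log2 units above), and rat Cfd in ovary, at 96.0 FPKM against 30.2 FPKM (1.64 above). Marmoset F3, named by the name table, stood at 89.6 FPKM in the authors' testis column and at most 18.9 FPKM in the somatic libraries (2.19 above).

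The wallaby had 1 library per tissue. Liver was at least 2 log2 units above testis, with at least 5 FPKM, for 28 of 34 members, beside 28.2% of all 11467 genes compared, and the median difference was 6.73 against 0.93 over all genes. C3 had 2015 FPKM in liver and 0.781 FPKM in testis, F2 846 and 0.171 FPKM, and PLG 1077 and 0.242 FPKM. The 6 others were CD55, F3, F8, F13A1, MASP1 and THBD. F3 was at 4.37 FPKM in liver and 4.07 FPKM in testis, THBD at 4.15 and 0.167 FPKM, and CD55 was listed at 0 in liver. CFD was high in wallaby liver, at 6218 FPKM against 11.4 FPKM in testis, beside adipocyte markers, 4 of 4 found, that summed to 356 FPKM in liver and 4.55 FPKM in testis. CIDEC gave 348.5 FPKM of the liver sum and ADIPOQ 0.0240 FPKM, and their part in the CFD level was not tested. C1QC, at 398 FPKM in liver and 2.73 FPKM in testis, came with macrophage markers that summed to 653 FPKM in liver and 3.62 FPKM in testis, 6 of 8 found. Their part in its level was not tested. C7, at 137 FPKM in liver and 3.65 FPKM in testis, came with fibroblast markers at 1262 and 67.1 FPKM. DCN and LUM gave 669 and 532 FPKM of the liver sum, and the markers' part in the C7 level was not tested.

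Male and female differences rest on 1 library per sex. In marmoset liver 8 of 23 members (34.8%) were at least 1 log2 unit higher in the male library, beside 23.6% of all 12644 genes with at least 1 FPKM. They were CFD, F12, PROC, C1R, C4BPA, F2, C1S and F7. The 3 members at least 1 higher in the female library, beside 6.46% of all genes, were F13A1 and the fibrinogen genes FGA and FGB, listed at 0 in the male. In rat liver 6 of 41 rows compared (14.6%) were at least 1 higher in the male, beside 11.5% of all genes: C8g, F12, F11, Vtn, Proc and F2. Rat C6 alone was at least 1 higher in the female, beside 3.91%, at 40.2 FPKM in male and 82.9 FPKM in female liver. F2, F12 and PROC were thus higher in the male liver of both species, each time in 1 animal against 1. The share of all genes higher in the male liver of both was not computed. The male liver library also had the higher sum over all genes, at 1686920 against 951576 FPKM in the marmoset and 2681370 against 1538060 FPKM in the rat. The part of this scale in the male and female differences was not tested.

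Genes of the wider pathways were counted by the same limma calls, beside 21.3% of all marmoset and 19.6% of all rat genes called higher in liver and 16.5% and 19.1% called lower. Of 15 further complement genes tested in the marmoset, 12 were called higher in liver and 3 were not called, and of 18 in the rat, 14 were higher and 4 were not called. Of 23 further coagulation and fibrinolysis genes in the marmoset, 13 were higher and 5 lower in liver, and of 22 in the rat, 14 were higher and 5 lower. The shares lower were near those over all genes. Examples from the rat are Serpinc1, antithrombin, higher by 8.99 ± 0.23, and C4bpb, the beta chain of C4b-binding protein, by 9.11 ± 0.28. The rat genes lower in liver were Plat, the tissue plasminogen activator (-3.12 ± 0.21), Vwf, von Willebrand factor (-1.71 ± 0.31), Plau, the urinary plasminogen activator (-1.39 ± 0.20), and the thrombin receptor F2r and its relative F2rl1. In the marmoset PLAU, PLAT, VWF and F2RL1 were among the genes lower in liver. Plau was called higher in kidney in both species, by 6.97 ± 0.20 in the rat and 1.44 ± 0.20 in the marmoset, and Vwf in heart, by 2.26 ± 0.31 and 3.06 ± 0.24.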

How the data were processed

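Polyadenylated RNA of 31 samples was sequenced, per the labels' protocols. TopHat 1.4.0 and Cufflinks 2.0.0 were used, per the submitters' processing notes. Builds, annotations, filters and the normalization method were not stated in the labels or headers used, and no coordinates or sequences are printed. The deposited values are FPKM by the authors, 1 table per species. Their depth is unknown, so no counting interval is given. Of the columns, 8 held only 0 and were not used.

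The members and lists were chosen with earlier results of these data known. For tissue differences, limma 3.58.1 (R 4.3.3) was run on log2(FPKM + 1), with a mean-variance trend, the animal as a block, genes that reached 1 FPKM in 2 or more of the 8 somatic libraries, and Benjamini-Hochberg adjustment over all genes tested. The scale understates changes near 1 FPKM. Libraries of the same animal deviated together, with correlations of 0.541 to 0.716 in the marmoset and 0.143 to 0.506 in the rat over the 6 tissue pairs. The fit was tested on simulated data with liver changes of known size, in which the libraries of an animal did not deviate together. It recovered 29% of changes of 2 log2 units and 69% of changes of 4 in the marmoset. In the rat it recovered 59% and 86%, and the false calls were 2 in the marmoset and 3 in the rat. A gene not called can therefore still differ. The block removes the male-female shift that all tissues share. P-values therefore measure how the difference between 1 male and 1 female varied from tissue to tissue.

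Levels are given for the 2 or 3 highest members of each role called higher in both livers. Most of these have liver values with a summary of the other libraries, or liver values alone. Levels are also given for members called higher in another tissue, members whose liver call differed between species, and members listed at 0 in a liver. Other members named were chosen after their values were seen. Of 2 rat IDs of Serpina10 with identical values, 1 was counted. Alternatives were another pseudocount, filter, scaling, zeros as missing, no block, no brain columns, no size threshold and each library left out.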

Additional observations from a re-analysis of the deposited data

How the results depend on the processing

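The count of members higher in liver stayed between 19 and 21 in the marmoset and between 32 and 36 in the rat over all alternatives tried, of 23 members and 44 rows tested in most of them. With exact 0 as missing it was 21 of 22 and 32 of 41, and with a filter of 5 FPKM 35 of 41 rat rows. The count of marmoset members higher in brain, heart or kidney was 3, became 5 with log2(FPKM + 0.1), which added C1R and F11, and ran between 2 and 5 with 1 library left out. The 5 came without the female liver, where FGA and FGB turned to -2.54 and -2.70; without the male liver they were 12.20 and 12.61. With exact 0 treated as missing FGA was 11.67 and called, and FGB could not be fitted. The count in rat gonads was 0, and 2 with a threshold of 1 log2 unit. In the rat, members higher outside liver numbered 7, between 5 and 10 over the alternatives.

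Without the replicate block, 19 marmoset members and 35 rat rows were higher in liver and 2 and 6 in another somatic tissue, while all genes higher in marmoset liver fell to 2221, against 3223 with it. Over the member differences in liver, 331 of 344 alternatives in the marmoset and 647 of 654 in the rat kept the call. A difference not called in either fit could change sign and still be counted as kept. Of the others, 8 marmoset and 1 rat calls were lost, all of them for CFD and Cd55, 3 and 6 were gained, and 2 turned round, with the causes not tested. Marmoset CFD was also lost without a filter (adjusted p = 0.0905) and with quantile normalization (0.0585). Quantile normalization moved the median liver difference of all genes to -0.13 in the marmoset and -0.16 in the rat, and with it rat Cd59 was called lower in liver (-1.31). With 2 libraries per tissue and unknown depth, the precision of low members such as rat F8 and F13a1 is not known.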
